A study of Mus musculus with 6 samples.

Results

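The apolipoprotein L (Apol) genes were followed in H3K27ac ChIPseq region lists of A9 cells. The 8 genes described are Apol6, Apol7a, Apol9a, Apol10a, Apol10b, Apol11b, Apol9b and Apol8, of 26180 genes in all with a curated RefSeq transcript. They were chosen from earlier measured results of these lists, in which the widest IFN-γ region that met neither a DMSO nor a curcuphenol region lay nearest to Apol10b. Their values are therefore a description of the family and carry no test. A9 cells are metastatic clones that were derived from TC1, a line of C57Bl/6 mouse lung cells transformed with HPV16 E6/E7 and activated H-ras, so that a single clonal line stands for the tumour. All cells were exposed for 48 h. They received curcuphenol (0.00167 µmol), a phenol of plants and marine sponges studied for its effect on antigen presentation, or IFN-γ (5.83 fmol), the cytokine that induces the antigen presentation machinery, or 1% DMSO, the vehicle in which the agents were dissolved. About 130000 live cells went into each preparation, and each of the 3 treatments gave 1 H3K27ac library and 1 input library, 6 libraries in all. The deposited lists hold 47899 regions after DMSO, 48763 after curcuphenol and 55622 after IFN-γ, which cover 69.8, 70.3 and 81.1 Mb. They hold positions only, so the read depth behind a region is unknown, no replicate error exists and no difference between treatments could be tested.

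Apolipoprotein L proteins are lipid-binding proteins that, unlike most apolipoproteins, are largely kept inside the cell. Some human members form channels in membranes, and the family is best known for the serum factor that lyses trypanosomes. Family members in both species are induced by interferons, and the mouse genes have multiplied in tandem on chromosome 15. H3K27ac marks active promoters and enhancers, so a wider called region means that acetylation was detected over a longer stretch of DNA. IFN-γ signals to chromatin through STAT proteins at the GAS element, and through complexes with IRF proteins at the interferon-stimulated response element (ISRE).

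The start-site sequences below are shown because H3K27ac regions at these promoters were found with every treatment, after IFN-γ alone or with none. They are stretches of 60 bases on the gene's own strand, read from the RefSeq promoter table of GRCm38.p6, and 7 of the 8 members were in that table (Apol6 was not). Capitals mark an ISRE-type match, here GAAA, any pair of bases and GAAA searched on both strands, which reads TTTC, a pair of bases and TTTC on the strand printed. In a run of 16 capitals a pair of such matches overlaps. The GAS letters searched were TTCNNNGAA, which read the same on both strands. The first pair of stretches is Apol9a (chr15:77411102-77411161, minus strand) and Apol9b (chr15:77729013-77729072, plus strand), whose promoters were in H3K27ac regions with all 3 treatments.
Apol9a: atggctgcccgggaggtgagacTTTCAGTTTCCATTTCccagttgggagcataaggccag
Apol9b: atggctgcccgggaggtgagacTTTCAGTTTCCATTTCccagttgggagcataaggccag
The next is Apol10b (chr15:77596095-77596154, minus strand), whose promoter was in a region after IFN-γ only.
Apol10b: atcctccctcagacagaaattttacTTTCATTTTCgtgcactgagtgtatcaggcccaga
It is followed by Apol10a (chr15:77476971-77477030, plus strand) and Apol11b (chr15:77643302-77643361, minus strand), which had no region in any list.
Apol10a: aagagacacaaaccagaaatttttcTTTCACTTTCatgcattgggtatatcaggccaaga
Apol11b: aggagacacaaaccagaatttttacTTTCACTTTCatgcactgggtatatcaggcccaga
The last pair is Apol7e (chr15:77698831-77698890, plus strand), which lies among the members and had a region after IFN-γ only, and its close copy Apol7b (chr15:77447454-77447513, minus strand), which had none.
Apol7e: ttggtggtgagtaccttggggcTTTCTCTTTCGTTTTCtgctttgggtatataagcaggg
Apol7b: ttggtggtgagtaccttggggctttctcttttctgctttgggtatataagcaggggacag

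The printed stretches of Apol9a and Apol9b hold the same bases. Between the bases that Apol7e and Apol7b share on either side, Apol7e holds 16 bases with a pair of overlapping matches and Apol7b holds 11 with none. Such matches were found in 3.44% of 32851 mouse promoters of 300 bp in the table, and the GAS letters in 8.30%. The ISRE-type match began 59 and 53 bases upstream of the start site in Apol9a, 37 and 31 in Apol9b, 51 in Apol10a and 50 in Apol11b. In Apol10b it began 4 bases upstream and ran across the start site. Apol7a and Apol8 had no match to either motif in their 300 bp, and Apol10a and Apol11b also held a GAS match from 241 bases upstream. A match is a description of letters, and binding was not measured.

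Of the 8 members, 5 had a region over the gene body or the 1000 bp upstream in at least 1 list, and 3 (Apol10a, Apol11b and Apol8) had none with any treatment. Of all 26180 genes, 15695 had such a region, so that 5 of 8 is close to the share over all genes. Apol10b is among the 5 through its IFN-γ region alone. A promoter was counted as acetylated where a region overlapped the 1000 bp before to 100 bp after a start site. This held for 4 members after DMSO (Apol6, Apol7a, Apol9a and Apol9b), 3 after curcuphenol (Apol7a, Apol9a and Apol9b) and 5 after IFN-γ (the same 4 and Apol10b). The region at Apol10b is the one from which the family was chosen, so nothing is read from the rise from 4 to 5. Where the centre of the region had to lie in the promoter, the counts were 2, 2 and 1, and IFN-γ had the lowest in place of the highest. Over all genes the shares by the overlap rule were 45.3% after DMSO, 44.3% after curcuphenol and 46.3% after IFN-γ. No such share is given for the centre rule, so its counts have nothing to be read against. Summed over the members, gene body and upstream sequence inside regions came to 12509 bp after DMSO, 9321 bp after curcuphenol and 28702 bp after IFN-γ. The IFN-γ sum includes 2462 bp of the Apol10b region.

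**Figure D1:**
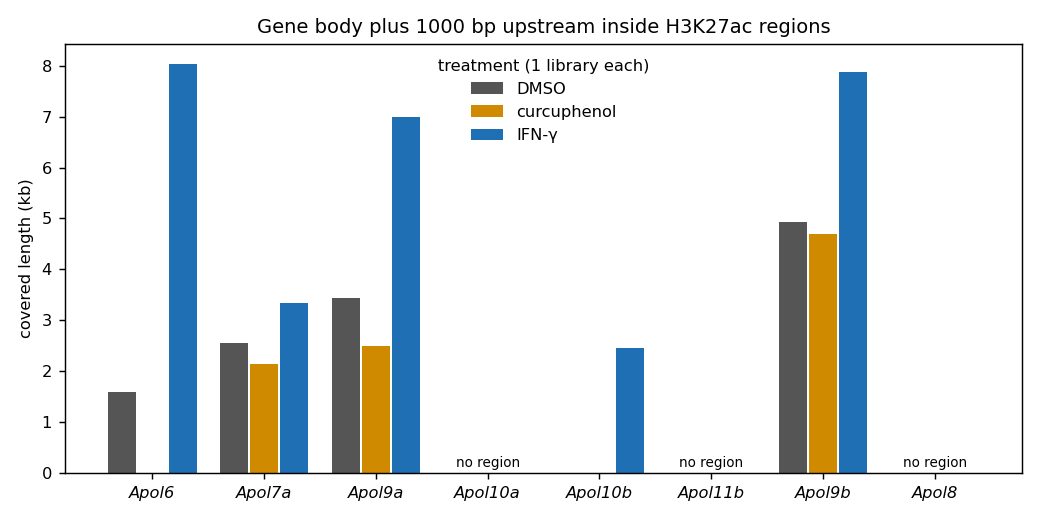
Length in kb of each member's gene body plus 1000 bp upstream inside H3K27ac regions (y axis) for DMSO (grey), curcuphenol (ochre) and IFN-γ (blue), 1 library each and so without error bars. The IFN-γ bar is the tallest in all 5 genes with a region, from 2462 bp at Apol10b to 8027 bp at Apol6, and 3 genes had no region.

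Apol6 (gene 71939, chromosome 15, 77045075 to 77057108, plus strand, mm10), whose human counterpart is known as a pro-apoptotic BH3-type protein, had the largest change in covered bp. It had 1595 bp covered after DMSO, 0 bp after curcuphenol and 8027 bp after IFN-γ, or 12.2%, 0% and 61.6% of the gene and its upstream 1000 bp. At its promoter a narrow region of 439 bp was called after DMSO, reaching 249 bp upstream and 189 bp downstream of the first start site. No region was called there after curcuphenol. With IFN-γ the region was 3301 bp wide and reached 1765 bp upstream and 1535 bp downstream. The 439 bp of the DMSO region hold 1 ISRE-type and 1 GAS match.

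The 3′ end of Apol6 and the sequence behind it carried the widest region of the family. DMSO gave a region of 1150 bp within the gene (77055343 to 77056492) and one of 3771 bp that starts at its last bases (77057103 to 77060873). Curcuphenol gave 1 region of 2328 bp (77057917 to 77060244), all of it behind the gene. IFN-γ gave a single region of 10707 bp (77051995 to 77062701) that spans both DMSO regions. A further IFN-γ region of 377 bp lay inside Apol6 at the promoter of Mb, the myoglobin gene, which overlaps Apol6 on the other strand, so that acetylation inside the 5′ part of Apol6 cannot be given to one gene or the other. Mb itself had 3706 bp after DMSO, 2499 bp after curcuphenol and 8991 bp after IFN-γ, part of which is counted in Apol6 too.

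Apol9a (gene 223672, chromosome 15, 77403789 to 77411080, minus strand) and Apol9b (gene 71898, 77729072 to 77736382, plus strand) are near-identical interferon-inducible copies that lie at opposite ends of the cluster. Apol9a had 3433 bp covered after DMSO, 2491 bp after curcuphenol and 7000 bp after IFN-γ, 41.4%, 30.0% and 84.4% of its length. Apol9b had 4929, 4692 and 7872 bp, 59.3%, 56.5% and 94.7%. Both were thus the most fully covered members after IFN-γ, as they were after DMSO and after curcuphenol. Within each of these genes, coverage was smallest after curcuphenol. The promoter region of Apol9a was 3859 bp wide after DMSO, 3223 bp after curcuphenol and 6182 bp after IFN-γ, and most of the difference lay downstream of the start, where it reached 2135, 1490 and 4015 bp. At Apol9b the region was 3477 bp after DMSO and 3487 bp after curcuphenol, with the same upstream end, and 9054 bp after IFN-γ, when it reached 6418 bp into the gene and took in the separate intronic region of 2157 bp called after DMSO.

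The copies limit what these values say about each gene. They align over 8338 bp at 96.9% identity, and only 67.8% of positions in Apol9a and 68.0% in Apol9b begin a word of 100 bases found once in the genome. With words of 50 bases these shares were 51.6% and 51.8%. Within the DMSO promoter regions, unique words of 100 bases began at 52.1% of positions at Apol9a and 49.4% at Apol9b. One IFN-γ region in Apol9a, 344 bp wide (77404738 to 77405081), held no unique word at all. Counting unique positions only, the IFN-γ minus DMSO difference was 2811 bp for Apol9a and 1838 bp for Apol9b, and the curcuphenol minus DMSO difference was -492 bp and -247 bp, so that the directions were kept. How reads from the copies were divided was not tested.

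Apol7a (gene 75761, 77388217 to 77399110, minus strand) carried 1 region at its promoter in each list, and its difference between IFN-γ and DMSO was the smallest among the members with a region. Its width was 2552 bp after DMSO, 2138 bp after curcuphenol and 3341 bp after IFN-γ, or 21.5%, 18.0% and 28.1% of the gene. The region lay mostly inside the gene with each treatment and reached 391, 90 and 586 bp upstream of the start site. The ratio of IFN-γ to DMSO was 1.31, against 1.16 for the covered length of the whole lists.

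Apol10b (gene 328561, 77584158 to 77596125, minus strand) had no region in the DMSO and curcuphenol lists. With IFN-γ a region of 6660 bp was called (77594664 to 77601323), which reached 5198 bp upstream and 1461 bp downstream of the start site and held 2 ISRE-type matches and 1 GAS match. Of it, 2462 bp fell on the gene and the 1000 bp upstream, 19.0% of that length. This value depends on the gene model, as it was 4879 bp where predicted RefSeq transcripts, which start farther upstream, were included, 6462 bp with 5000 bp of upstream sequence and 1462 bp with none. Of the gene's positions 98.7% begin a unique word of 100 bases, although 67.2% of it aligns to Apol11b.

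Apol10a (gene 245282, 77477047 to 77491069, plus strand), Apol11b (gene 328563, 77633951 to 77643286, minus strand) and Apol8 (gene 239552, 77747799 to 77757010, minus strand) were outside every region. A list of called regions has no value below its threshold, so that acetylation under that threshold is not excluded. Unique 100-base words began at 88.3% of positions in Apol10a, 81.8% in Apol11b and 100% in Apol8. The promoters of Apol10a and Apol11b were 89.0% identical and both carry the ISRE-type match printed above. Apol10b, which had a region after IFN-γ, carries such a match too, with other letters and across its start site. Its promoter was 45.0% identical to that of Apol10a and 47.5% to that of Apol11b, and held no GAS match.

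**Figure D2:**
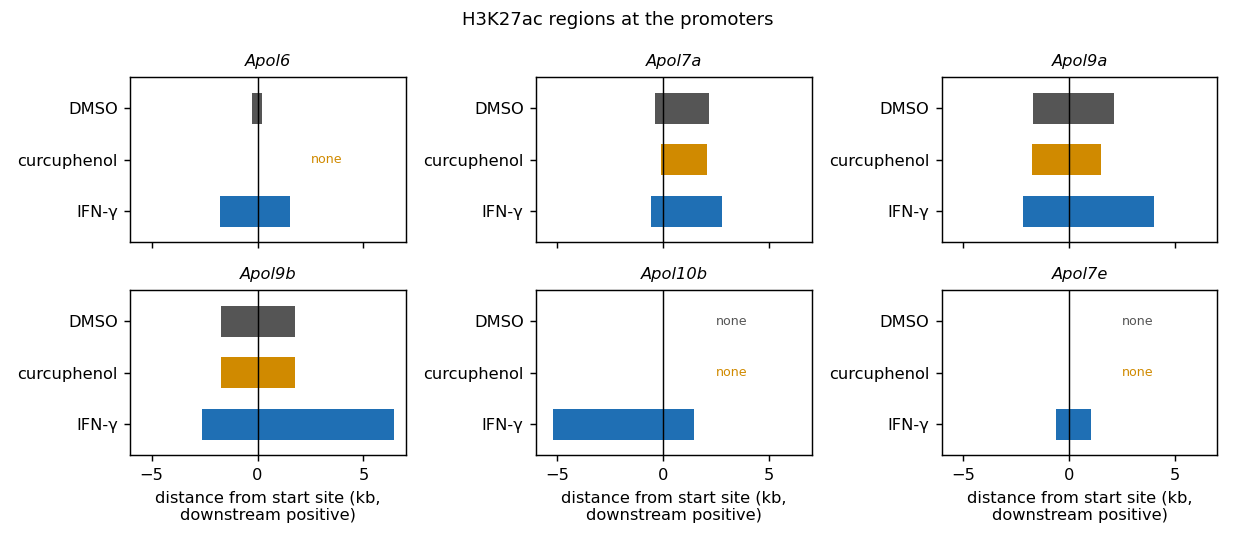
Position of the H3K27ac region at the promoter of 6 Apol genes, in kb from the first start site with downstream positive (x axis), for DMSO (grey), curcuphenol (ochre) and IFN-γ (blue); "none" marks a promoter without a region. IFN-γ regions reach farther on both sides of the start site at Apol6, Apol7a, Apol9a and Apol9b, and stand alone at Apol10b and Apol7e.

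Other Apol genes show which relatives moved with the members. Apol7e (77698889 to 77719288) had no region after DMSO or curcuphenol and one of 1651 bp after IFN-γ, reaching 628 bp upstream and 1022 bp downstream of the start site. Its copy Apol7b, with 96.1% promoter identity, had no region in any list, nor had Apol7c and Apol11a, although both of the latter hold ISRE-type matches (2 and 1). Unique words began at 76.5% of positions in Apol7e and 63.1% in Apol7b. Outside the cluster, the non-coding Apol7d on chromosome 1 had 2326 bp after DMSO, 2064 bp after curcuphenol and 2235 bp after IFN-γ, and Apold1 on chromosome 6 had 376 bp after curcuphenol alone. The Apol7d region also covers the start site of Fn1, the fibronectin gene on the other strand, so its value cannot be given to Apol7d alone. Of these 6 genes with a curated transcript, 1 had more covered bp after IFN-γ than after DMSO, 1 had fewer and 4 were equal or without a region.

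Over the whole locus, genes included, covered length was largest after IFN-γ and smallest after curcuphenol. The members fall into 2 segments of chromosome 15, taken with 10 kb on either side. The Apol6 segment (77035075 to 77067108) held 4 regions after DMSO, 2 after curcuphenol and 4 after IFN-γ, which covered 8265, 4827 and 18419 bp, 25.8%, 15.1% and 57.5% of its length. The segment from Apol7a to Apol8 (77378217 to 77767010) held 8, 5 and 13 regions, which covered 16188, 11836 and 35194 bp, 4.16%, 3.04% and 9.05%. Relative to DMSO the covered length was 2.23 and 2.17 times after IFN-γ in the respective segments, against 1.16 over the whole lists. After curcuphenol it was 0.584 and 0.731 times, against 1.01. The Apol7a to Apol8 segment holds the 6660 bp Apol10b region from which the family was chosen, so its IFN-γ ratio is a description only.

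Outside the genes and their upstream sequence, regions of the Apol6 segment covered 3765, 2328 and 5593 bp after DMSO, curcuphenol and IFN-γ. Those of the Apol7a to Apol8 segment covered 4400, 2515 and 11625 bp. Much of the IFN-γ gain in the latter segment was the upstream part of the Apol10b region, from which the family was chosen. This gain too is thus a description only. Behind Apol9b an intergenic region was called in all lists, 2972 bp wide after DMSO (77740077 to 77743048), 1078 bp after curcuphenol and 3578 bp after IFN-γ. It holds 2 ISRE-type matches and 1 GAS match after DMSO and IFN-γ, and no match of either kind within the narrower curcuphenol region. A shorter region has less room for matches, so nothing is read from this difference.

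**Figure D3:**
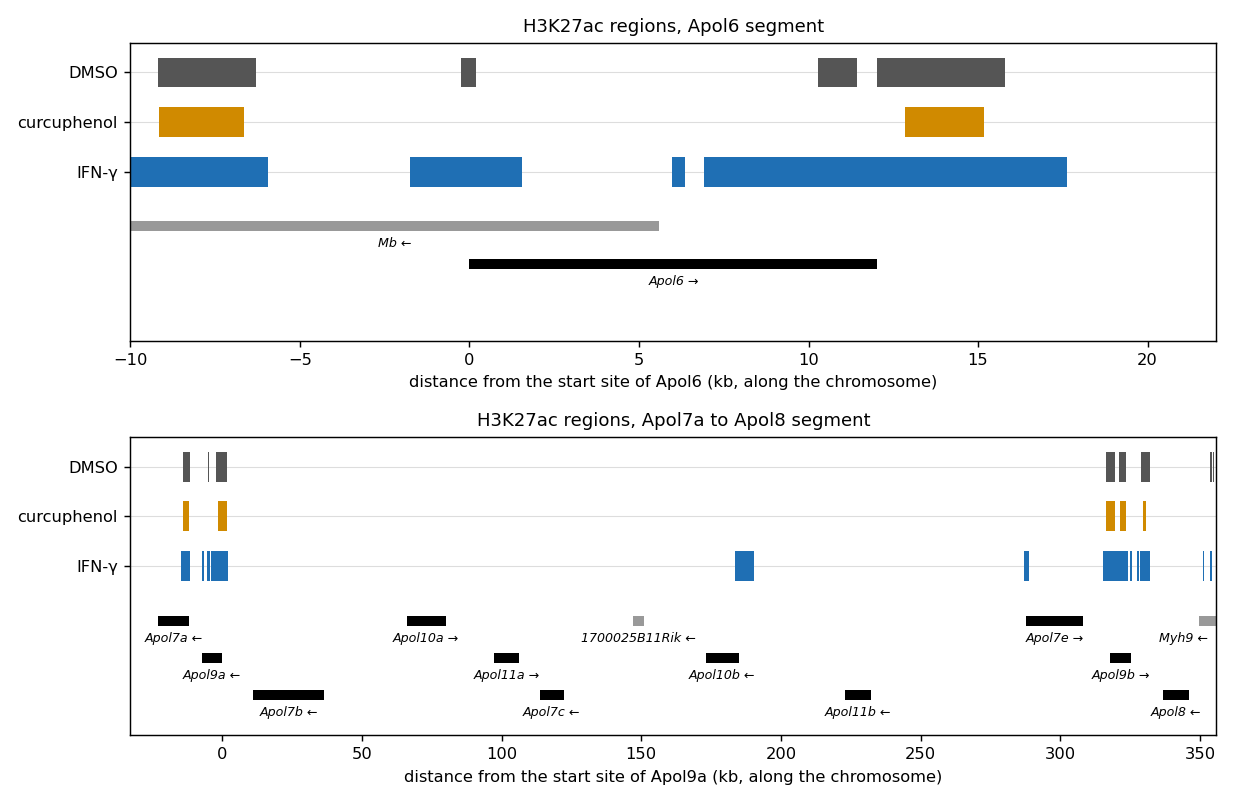
H3K27ac regions along both segments (bars), by distance in kb along the chromosome from the start site of Apol6 (upper panel) and of Apol9a (lower panel), for DMSO (grey), curcuphenol (ochre) and IFN-γ (blue), with Apol genes in black, other genes in light grey and arrows for strand. Regions gather at Apol7a and Apol9a and at Apol9b, and the 314.6 kb between them hold none after DMSO or curcuphenol and 2 after IFN-γ, at Apol10b and Apol7e.

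A stretch of 314.6 kb from Apol9a to Apol9b (77412804 to 77727366) had no region after DMSO, and nearly the same stretch, also 314.6 kb, had none after curcuphenol. It contains 8 genes, among them Apol10a, Apol10b and Apol11b. With DMSO, 1468 of 47878 stretches between neighbouring regions of the genome were as long, so that its length is not rare. IFN-γ regions at Apol10b and Apol7e broke it, and the longest stretch left without a region in any list was 181.4 kb. Unique words of 100 bases began at 77.2% of positions in the DMSO stretch.

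Of the 17 IFN-γ regions in both segments, 8 overlapped no DMSO region, 47.1%, against 28.6% of all IFN-γ regions. They lay at the Mb promoter inside Apol6, in Apol9a (2 regions), at Apol10b, at Apol7e, at and behind the 3′ end of Apol9b (2 regions) and in an intron of Myh9, the non-muscle myosin gene next to Apol8. None of the 8 overlapped a curcuphenol region, and over all IFN-γ regions with no DMSO region that share was 28.9%. The Apol10b region from which the family was chosen is one of the 8, so these shares are a description only. Conversely, 1 of 12 DMSO regions had no IFN-γ region, a 240 bp region in Myh9, and each of the 7 curcuphenol regions overlapped a DMSO region. Where regions of 1 list less than 500 bp apart were joined first, 4 IFN-γ regions without a DMSO region were left.

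Across the 15695 genes with any region, 58.7% had more covered bp after IFN-γ than after DMSO and 33.9% had fewer. Among the members with a region, 5 of 5 had more and 0 had fewer. Apol10b is among these 5 through its IFN-γ region alone, the region from which the family was chosen, so its direction was fixed by that choice and nothing is read from the count. With curcuphenol, 44.9% of genes had more and 51.0% had fewer. Here 0 of 5 members had more, 4 had fewer and Apol10b had 0 bp in both lists. Both changes at once, more after IFN-γ and fewer after curcuphenol, were found in 25.6% of genes and in 4 of 5 members. The comparisons share the DMSO list, so that a high or low DMSO value moves both.

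A rise of at least 2-fold after IFN-γ, computed on covered bp plus 200 bp so that short regions count less, was found in 9.16% of genes and in 2 of 5 members, Apol6 and Apol10b, the latter again fixed by the choice. On this scale the log2 differences were 2.20 for Apol6, 3.73 for Apol10b, 0.99 for Apol9a, 0.65 for Apol9b and 0.36 for Apol7a, with a median of 0.99 against 0.08 over all genes. The value of Apol10b, which also enters the median, rests on a DMSO value of 0 bp and depends on the 200 bp that were added. With curcuphenol the rise was found in 13.5% of genes and in 0 of 5 members. The curcuphenol log2 differences were -3.17 for Apol6, -0.43 for Apol9a, -0.24 for Apol7a and -0.07 for Apol9b. The median was -0.24 against -0.01 over all genes.

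**Figure D4:**
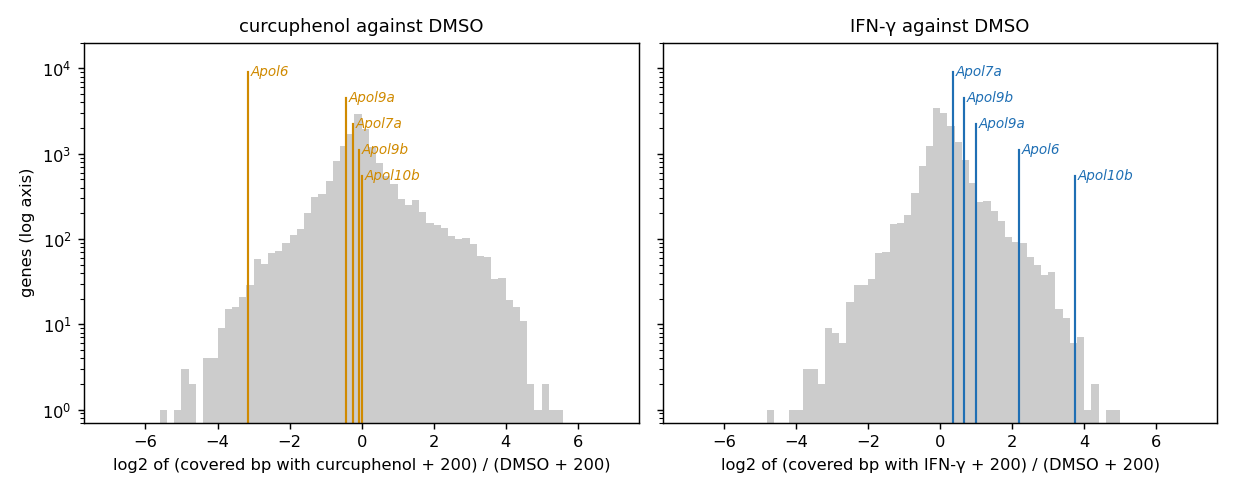
Distribution over 15695 genes of the log2 difference in covered bp (200 bp added) from DMSO for curcuphenol (left) and IFN-γ (right), with the number of genes on a log axis and the 5 members with a region as coloured lines. With IFN-γ all 5 lines lie above 0, from 0.36 to 3.73, and after curcuphenol 4 lie below 0 and Apol10b at 0.

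In base pairs, the IFN-γ minus DMSO difference ranked 266 of 15695 for Apol6 (6432 bp), 708 for Apol9a (3567 bp), 933 for Apol9b (2943 bp), 1183 for Apol10b (2462 bp) and 3799 for Apol7a (789 bp). By windows of 100 kb with a region in any list, the one that holds Apol6 ranked 10 of 16226, with 14264 bp after DMSO, 12653 bp after curcuphenol and 32591 bp after IFN-γ. That window also holds Mb and part of Rbfox2, a splicing regulator gene, so its rank is not that of Apol6 alone. The window of Apol9b and Apol8 ranked 246, that of Apol10b 697, and those of the other members 1160 to 1811. The ranks of Apol10b and its window rest on the region from which the family was chosen, so nothing is read from them. That region also reaches into the window of Apol11b.

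ISRE-type letters were not denser in the DNA that only IFN-γ regions covered. In both segments, bases in IFN-γ regions but not in DMSO regions (29400 bp) held 5 matches, 0.170 per kb, and bases in regions of both lists (24213 bp) held 10, 0.413 per kb. Over the genome the densities were 0.260 and 0.180 per kb, the opposite order. GAS letters came to 0.272 per kb in the IFN-γ-only bases and 0.248 per kb in the shared bases of the segments, against 0.305 and 0.317 over the genome. These counts are small, and the shared bases include the promoters of Apol9a and Apol9b, which hold overlapping matches in duplicate.

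Among 11 factors of the IFN-γ pathway, 10 had a region, against 15695 of all 26180 genes. Of the 10 factors, 8 had more covered bp after IFN-γ than after DMSO and 1 had fewer. After curcuphenol 8 had fewer and 1 had more. Over all genes with a region, 58.7% had more after IFN-γ and 51.0% had fewer after curcuphenol. Irf2, an IRF family factor that binds ISRE elements, had 17613 bp after DMSO, 12274 bp after curcuphenol and 33467 bp after IFN-γ. Jak1, the receptor-associated kinase, had 7951, 4424 and 9505 bp, and Stat2 had 2943, 2326 and 4378 bp. The order of the treatments at these 3 genes is the one found at Apol9a. It is a common order, as more after IFN-γ with fewer after curcuphenol was found in 25.6% of genes with a region.

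Of 19 other apolipoprotein and lipoprotein genes, which share the lipid-binding name but not the gene family, 7 had a region. Over all genes this held for 15695 of 26180. With IFN-γ, 4 of the 7 had more covered bp than after DMSO and 3 had fewer, and after curcuphenol all 7 had fewer. The shares over all genes with a region were 58.7% with more after IFN-γ and 51.0% with fewer after curcuphenol. Lrp1, a large endocytic receptor of lipoproteins, had 27310 bp after DMSO, 21129 bp after curcuphenol and 32684 bp after IFN-γ. Apod had 2362, 0 and 2789 bp, and Apool had 2089, 1458 and 616 bp. Apoa1, Apob and Apoe, the main proteins of circulating lipoproteins, had no region in any list. The genes on either side of the cluster also shared the order. The 6 neighbours on chromosome 15 with a region (Mb, Rbfox2, Myh9, Txn2, Foxred2 and Eif3d) all had more covered bp after IFN-γ and fewer after curcuphenol than after DMSO. Both changes at once were found in 25.6% of all genes with a region. Among the neighbours, Rbfox2 had 38811, 30983 and 44126 bp and Myh9 had 53334, 41335 and 57325 bp.

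The genes most like Apol6, the member with most covered bp after IFN-γ, were sought by Euclidean distance over the 3 treatments of log2(covered bp + 200), among genes outside the family and more than 1 Mb away. They were Tgtp2 (1226 bp after DMSO, 0 bp after curcuphenol and 8017 bp after IFN-γ, distance 0.33), Gm12250 (1301, 0 and 6454 bp, distance 0.40), Plac8 (2033, 0 and 4564 bp, distance 0.85), Slc44a3 (1078, 0 and 4591 bp, distance 0.92) and Gbp4 (2906, 0 and 11351 bp, distance 0.93). Tgtp2 and Gbp4 encode interferon-induced GTPases. The distance rests on 3 values a gene.

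The labelled cell type was checked on markers. Of 5 epithelial markers 2 had a region (Cdh1 and Krt8), while Epcam, Krt18 and Krt19 had none, and of 4 markers of lung epithelium only Scgb1a1 had one, of 181 to 566 bp, with Sftpc, Sftpb and Nkx2-1 in none. All 4 mesenchymal markers had a region. Of 7 leukocyte markers Cd68 (2958 bp in each list) and Itgam had one. The others, such as Ptprc, Cd3e, Adgre1 and Lyz2, had none in any list. Of 4 endothelial markers 3 had a region (Cdh5, Pecam1 and Tek), and Kdr had none. Over all genes, 15695 of 26180 had a region, so these marker counts alone do not settle the cell type. The summed covered length after DMSO, curcuphenol and IFN-γ was 4924, 5711 and 8180 bp for the epithelial list. It was 21439, 10601 and 18899 bp for the mesenchymal list and 3743, 2958 and 3460 bp for the leukocyte list. For the endothelial list it was 5964, 9938 and 8887 bp. The part of such cell types in the values of the Apol genes was not tested.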

How the data were processed

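H3K27ac ChIPseq regions of A9 cells were available as 1 list per treatment. The authors aligned paired reads to mm10 with BWA mem (version 0.7.17 in the submitters' processing notes) and called regions with MACS2 2.1.2 (BAMPE format, FDR 0.01, matched input). The deposited values are start and end positions, with no score, signal or count. Filters on duplicates or mapping quality and the read length are not given in the sources used here.

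Genes were curated RefSeq transcripts of GRCm38.p6, the assembly of mm10. Covered length is the gene body plus 1000 bp upstream inside regions, and overlap means at least 1 bp. Repeated sequence was measured from words of 50 and 100 bases counted over the genome. Python 3.11.15, numpy 2.4.6, pandas 2.3.3, Biopython 1.88 and blastn 2.17.0 were used, and interval code was tested on 1000 simulated intervals. Genes named were all members, the other Apol genes, the neighbouring genes, up to 4 genes of each pathway list with the largest change with IFN-γ, the 5 genes most like Apol6, and the fixed markers. The members and lists were chosen with earlier results of these data known. In all, 13 alternative settings were run, and the count of unique positions was added after seeing the data. With 1 library per treatment no test, p-value or error could be computed.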

Additional observations from a re-analysis of the deposited data

How the results depend on the processing

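Of 149 values recomputed under other settings (transcript models, upstream length, region width, list size, promoter window, overlap, flanks and windows), no difference changed sign. Among the 60 values of single members those of Apol10b after curcuphenol stayed at 0, and 83 of the 89 others stayed within 1.5-fold. With the centre of a region required inside the promoter, 2 members had a promoter region after DMSO and 1 after IFN-γ, in place of 4 and 5, and 2 after curcuphenol in place of 3, so that the order of the treatments turned. With regions joined over less than 500 bp, 4 IFN-γ regions lacked a DMSO region in place of 8. Without the flanks, regions between the genes covered 4400 bp after DMSO and 2515 bp after curcuphenol in place of 8165 and 4843 bp, because the flanks of Apol6 hold regions. In windows of 200 kb the best member window ranked 28, in place of 10. With unique positions only, a setting chosen after seeing the data, members summed to 9444 bp after DMSO, 6797 bp after curcuphenol and 23523 bp after IFN-γ. The difference of Apol7a after curcuphenol was -113 bp without upstream sequence in place of -414 bp, and that of Apol10b after IFN-γ ran from 1462 to 6462 bp with the length taken upstream. No paired analysis was possible because each treatment has 1 library and no test was made. A called region says nothing of its height, and the read depth of each list, which sets how much is called, is unknown.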
